A study of Arabidopsis thaliana with 6 samples.

Results

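The pith of the Arabidopsis thaliana inflorescence stem was compared with the remaining vascular bundle over all genes counted, in 4 of the 6 RNA-seq libraries of the series, 2 from the pith and 2 from the vascular bundle. The tissues were cut from snap-frozen stem pieces of internode 2 by laser capture microdissection (LCM), in which a laser frees a chosen area for RNA extraction. The remaining libraries came from the phloem cap, whose values are not given here. All groups were of the Col-0 strain, with no other allele or agent in the labels. By the labels, plants grew on soil for 3 weeks in short days with 8 h of light at 21 °C and were then moved to long days with 16 h of light so that they would flower. The methods of the study give a longer short-day light period and a wider range of weeks. The pith samples were the central stem area inside the ring of bundles, and the vascular bundle samples were what was left of a bundle after its phloem cap and the pith had been taken. How many plants or sections made up a sample is not given in the sources used here. P-values therefore measure the spread between these samples, which may be technical. Of 37051 genes in the count table, 18063 had enough counts in these 4 libraries to be tested, and 18988 did not.

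Pith is the ground tissue in the middle of the stem. It consists of large, thin-walled parenchyma cells that enlarge while the stem elongates, store water and solutes, and later empty and die in many plants. A vascular bundle holds water-conducting xylem, lignified fibers, the dividing cells of the cambium and sugar-conducting phloem, so the comparison sets parenchyma against a mixture of vascular cell types. In bulk tissue, fewer cells of a type and less RNA per cell cannot be told apart.

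The 4 libraries held between 20480573 and 22571632 counts, and values below are counts per 1000000 counts (CPM) with library sizes scaled by TMM, a trimmed mean over genes. The pith replicates lay further apart than the vascular bundle replicates, with 1487 of 13550 genes above a mean of 50 counts more than 2-fold apart, against 370 of 15243 genes in the vascular bundle. The pith markers rose in both pith libraries. NAC074 had 15.7 and 11.1 CPM in the pith, against 0.947 and 0.469 CPM in the vascular bundle. The peroxidase gene AT2G38380 had 46.9 and 162 CPM in the pith, against 0.284 and 1.19 CPM in the vascular bundle. Markers of xylem, phloem and epidermis were low in the pith but not absent. Summed over 9 xylem and fiber markers, of which 7 were called lower, NAC101 was not called and VND7 was not tested, the level was 218 and 162 CPM in the pith libraries, against 5073 and 5307 CPM in the vascular bundle libraries. Summed over 8 phloem markers, of which 6 were called lower and NAC045 and NAC086 were not tested, it was 51 and 71.6 CPM in the pith libraries, against 1966 and 1219 CPM in the vascular bundle libraries. The 6 epidermis markers summed to 4.79 and 6.67 CPM in the pith libraries, against 537 and 668 CPM in the vascular bundle libraries, so the libraries labelled vascular bundle held epidermal transcripts that the pith libraries nearly lacked. Of these epidermis markers ABCG12, ATML1, CER1 and KCS10 (FDH) were called lower, LP1 (LTP1) was not called and PDF1 was not tested. The part of these cells in each result below was not tested. PXY, the receptor of cambium and xylem cells, had 573 and 528 CPM in the pith, against 324 and 280.2 CPM in the vascular bundle, and was not called, while the other cambium markers WOX4, AT5G57130 (SMXL5) and ANT were called lower. The 4 cambium markers together summed to 577 and 538 CPM in the pith libraries, against 695 and 501 CPM in the vascular bundle libraries. Nearly all of the pith sum was PXY, so the sum hides the drop of WOX4, AT5G57130 and ANT. The median log2 fold change of the 4 markers was -5.22. SCR, which marks the starch sheath, had 19.9 and 26.8 CPM in the pith, against 8.71 and 10.6 CPM in the vascular bundle, and was not called.

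A gene was called higher or lower in the pith when edgeR's quasi-likelihood test gave a Benjamini-Hochberg adjusted p below 0.01 over all tested genes together with a fold change above 2. By this rule 982 genes, or 5.44% of those tested, were higher and 1888 genes, or 10.5%, were lower. The median log2 fold change over all tested genes was -0.04, and these 3 values are the background against which every gene group below is read. Lists of genes and annotated families were both used as groups. Where a gene is given as not called, that refers to edgeR. Of the genes so named with CPM values, DESeq2 called SCR, CESA5, RPS6, FER and PIP1;5 higher and RCI3, MYB46 and NAC007 lower. With library totals in place of TMM all values shifted by -0.21 on the log2 scale. For each called gene both libraries of one tissue lay above both of the other. Within the pith, the 982 higher genes made up 27.3% of all CPM, and within the vascular bundle the 1888 lower genes made up 21.7%. Of the 982 genes 246 overlap another annotated gene, as do 418 of the 1888, and since strand was not used their counts are uncertain. Calls depended on single libraries. Without pith replicate 1 there were 1771 higher and 3108 lower genes, without pith replicate 2 there were 2072 and 3470, without vascular bundle replicate 1 there were 471 and 960, and without vascular bundle replicate 2 there were 474 and 1059. The call was kept with each library left out in turn by 378 of the higher and 824 of the lower genes, although all 982 and all but 4 of the 1888 stayed above a fold of 2 in the same direction. Counts of a group with each library left out are given below in the order pith replicate 1, pith replicate 2, vascular bundle replicate 1 and vascular bundle replicate 2.

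**Figure D1:**
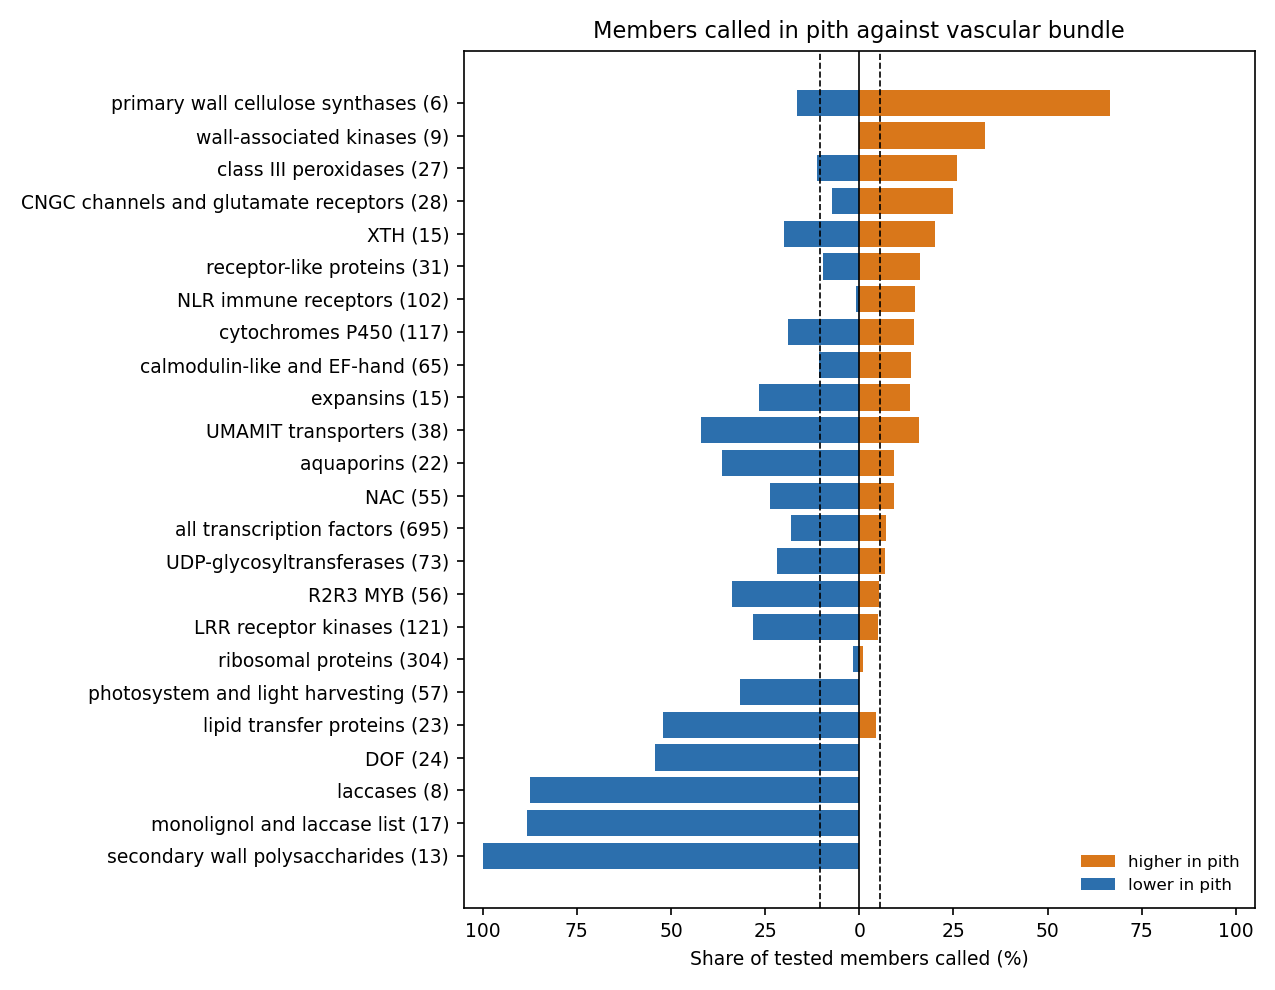
Share of tested members called higher (right, orange) or lower (left, blue) in the pith for 24 gene groups, in percent, with the number of tested members after each name. Dashed lines mark the shares over all tested genes, 5.44% higher and 10.5% lower. Laccases, secondary wall and lignin genes reach furthest to the left, and primary wall cellulose synthases, wall-associated kinases and class III peroxidases furthest to the right.

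The 10 genes with the largest changes towards the pith were ranked among called genes with an annotated name and at least 100 counts in each pith library. They included those of a protease, a peroxidase, a lipid transfer-like protein, an early nodulin-like protein, 2 cytochromes P450 and a glycosyltransferase. The others were SDR4, AT2G34320 and AT3G09960. SBT3.3, a subtilisin-like protease linked to immune priming, had 17.4 and 12.8 CPM in the pith, against 0 and 0.0853 CPM in the vascular bundle. AZI1, a lipid transfer-like protein of systemic immunity, had 27.6 and 81.4 CPM in the pith libraries, against 0.426 and 0.725 CPM in the vascular bundle libraries, with a log2 difference of 6.54 ± 0.67 (SE) and an adjusted p of 0.000873. ENODL1, an early nodulin-like protein, was at 597 and 369.5 CPM in the pith, against 3.55 and 7.46 CPM in the vascular bundle (log2 difference 6.45 ± 0.49 SE, adjusted p = 0.000344). The cytochrome P450 gene CYP712A2 had 53.1 and 45.7 CPM in the pith, against 0.758 and 0.597 CPM in the vascular bundle. The glycosyltransferase gene UGT84A4 had 7.05 and 5.46 CPM in the pith, against 0.0947 and 0 CPM in the vascular bundle. Every one of these genes was below 8 CPM in each vascular bundle library. CYP78A7, whose relatives in the CYP78A family act in organ growth, had 44 and 76.1 CPM in the pith, against 0 and 0.938 CPM in the vascular bundle. DESeq2 did not call CYP78A7. The call of CYP78A7 was lost without pith replicate 1 (adjusted p = 0.0609) and without pith replicate 2 (adjusted p = 0.0696). For AZI1 the log2 fold change ranged from 5.56 to 7.12 with single libraries left out. For ENODL1 the log2 fold change ranged from 6.06 to 7.10 with single libraries left out. SBT3.3 also overlaps another annotated gene, so its counts are uncertain.

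At the other end stood genes with no count in either pith library, for which only a lower bound of the change can be given, set by 3 counts per library. ALMT12, an anion channel of stomatal guard cells, was at 11.3 and 10.6 CPM in the vascular bundle, at least 67.9-fold lower in the pith. SWEET1, a sugar exporter, was at 7.34 and 6.44 CPM in the vascular bundle, at least 42.7-fold lower in the pith. ABCG18 was at 7.15 and 14.4 CPM and at least 66.7-fold lower in the pith, and ELIP1, an early light-induced protein, was at 7.05 and 7.21 CPM and at least 44.2-fold lower in the pith. In all, 137 of the 1888 lower genes had no count in the pith, whereas 4 of the 982 higher genes had none in the vascular bundle. Counts of SWEET1 are uncertain because of an overlap with another gene.

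By level rather than change, the pith transcriptome was led by 2 genes for small proteins, RNA-binding proteins, a peroxidase, a catalase and a water channel, compared here in TPM, which also sums to 1000000 in a library and corrects for exonic length. ECS1 averaged 19389 TPM in the pith and 2821 TPM in the vascular bundle. TCTP, the translationally controlled tumor protein, averaged 19305 TPM in the pith and 13047 TPM in the vascular bundle and was not called. PRXR1, a class III peroxidase, averaged 11613 TPM in the pith and 3816 TPM in the vascular bundle, and AT1G62480, annotated as a vacuolar calcium-binding protein, averaged 7841 TPM in the pith and 1404 TPM in the vascular bundle. Some of the genes with the highest pith TPM were thus abundant in both tissues and others mainly in the pith. The aquaporin gene PIP1;5 averaged 6089 TPM in the pith and 2217 TPM in the vascular bundle, with a log2 difference of 1.63 ± 0.33 (SE) and an adjusted p of 0.0105, which missed the threshold.

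Most cellulose synthase genes of the primary cell wall were higher in the pith, and all those of the secondary wall were lower. Cellulose of the thin primary wall is made by complexes of CESA1, CESA3 and CESA6-like subunits, and that of the thick secondary wall by CESA4, CESA7 and CESA8. Of 6 primary wall subunits tested, 4 were higher and 1 was lower (1, 1, 1 and 0 with each library left out), with a median log2 fold change of 1.79. The CESA6 gene had 963 and 1323 CPM in the pith libraries, against 245 and 321 CPM in the vascular bundle libraries (log2 difference 2.01 ± 0.27 SE, adjusted p = 0.0024). CESA1 had 1492 and 2298 CPM in the pith libraries, against 466 and 574 CPM in the vascular bundle libraries, with a log2 difference of 1.86 ± 0.29 (SE) and an adjusted p of 0.00383. CEV1, the gene of the CESA3 subunit, was the most abundant with 5319 and 6168 CPM in the pith libraries, against 1472 and 1752 CPM in the vascular bundle libraries (log2 difference 1.83 ± 0.23 SE, adjusted p = 0.00186). CESA2 had 2561 and 2984 CPM in the pith, against 740.2 and 907 CPM in the vascular bundle. CESA5 had 219 and 383 CPM in the pith, against 104 and 157 CPM in the vascular bundle, and was not called. For all of these the pith libraries lay above the vascular bundle libraries, in contrast to CESA9 with 4.51 and 2.94 CPM in the pith, against 19.9 and 28.9 CPM in the vascular bundle. CESA9 lost its call without vascular bundle replicate 2 (adjusted p = 0.0204). CESA1 and CEV1 share positions with another annotated gene, which makes their counts uncertain.

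All 13 tested genes of secondary wall cellulose and xylan synthesis were lower in the pith, with a median log2 fold change of -4.70. CESA4 had 55.7 and 37.3 CPM in the pith, against 1772 and 1980.0 CPM in the vascular bundle. IRX3 (CESA7) had 17.5 and 10.7 CPM in the pith, against 473 and 578 CPM in the vascular bundle. IRX1 (CESA8) had 2.86 and 4.89 CPM in the pith, against 162 and 241 CPM in the vascular bundle. In all 3 of these subunits the lowest vascular bundle library was more than 20 times above the highest pith library. GAUT12, a glycosyltransferase needed for xylan, had 3.41 and 7.62 CPM in the pith, against 272 and 306 CPM in the vascular bundle, with a log2 difference of -5.71 ± 0.44 (SE) and an adjusted p of 0.000344. Within 1 gene family the direction thus differed between the subunits of the wall types, CESA9 excepted. For GAUT12 the log2 fold change ranged from -6.40 to -5.24 with single libraries left out. Because of overlapping genes, the counts of CESA4, IRX3, IRX1 and GAUT12 are uncertain.

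**Figure D2:**
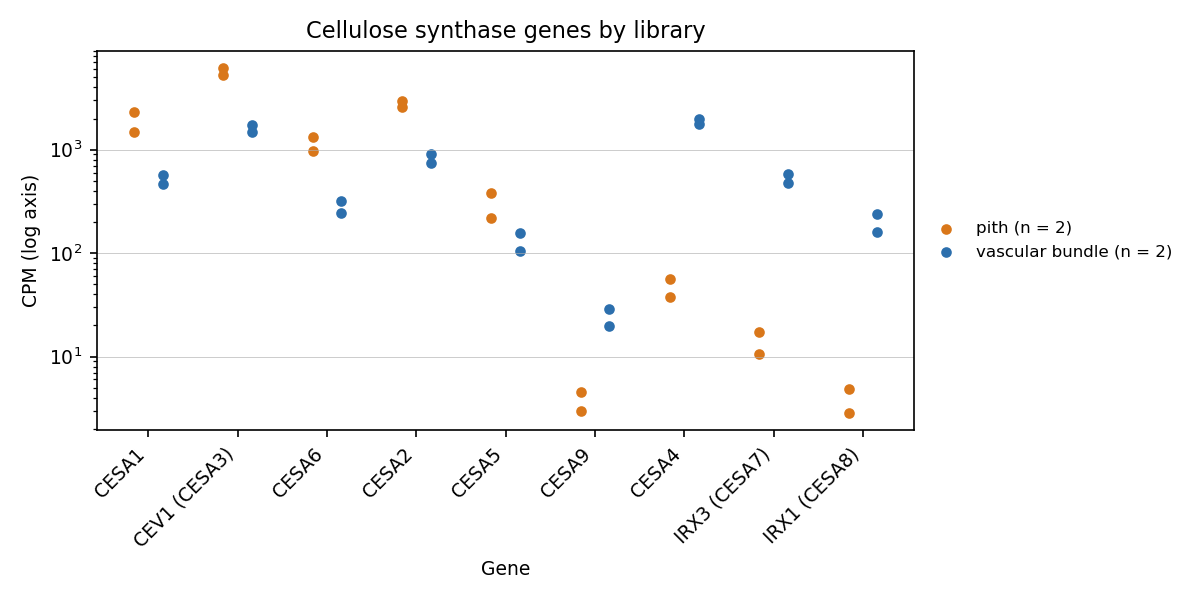
CPM (log axis) of 9 cellulose synthase genes in each library, pith replicates in orange left of vascular bundle replicates in blue. For CESA1, CEV1 (CESA3), CESA6, CESA2 and CESA5 both pith points lie above both vascular bundle points, and for CESA9, CESA4, IRX3 (CESA7) and IRX1 (CESA8) below them.

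Lignin genes were lower in the pith from the first enzyme of the pathway to the laccases, apart from OMT1 and CCR1. Monolignols are built from phenylalanine by enzymes from PAL to CAD and coupled in the wall by laccases. Of 17 genes tested, 15 were lower and none was higher by edgeR (DESeq2 called 0, and 0 had an unadjusted edgeR p under 0.05), with a median log2 fold change of -3.97. FAH1, the ferulate 5-hydroxylase that leads to syringyl lignin, had 5.07 and 2.31 CPM in the pith libraries, against 191 and 155 CPM in the vascular bundle libraries (log2 difference -5.55 ± 0.43 SE, adjusted p = 0.000356). PAL4 had 18.1 and 21.1 CPM in the pith, against 780.4 and 607 CPM in the vascular bundle. 4CL1 had 31.7 and 63.1 CPM in the pith, against 1354 and 1618 CPM in the vascular bundle. The laccase gene LAC17 had 4.24 and 4.52 CPM in the pith, against 113 and 152 CPM in the vascular bundle. These 4 were named as the list members with the largest changes, so their like order of size follows from that choice. The members not called were OMT1, which had 556 and 744 CPM in the pith, against 681 and 628 CPM in the vascular bundle, and CCR1 (AT1G15950), which had under 1 CPM in every library and overlaps another gene, and reads over 2 genes were not counted. Among 8 laccases tested, 7 were lower. LAC10 had 0.385 and 1.63 CPM in the pith, against 31.8 and 64.9 CPM in the vascular bundle. LAC13, the member not called, had 1.16 and 1.26 CPM in the pith, against 0.331 and 0.597 CPM in the vascular bundle. For FAH1 the log2 fold change ranged from -6.22 to -5.09 with single libraries left out. Overlapping annotation makes the counts of 4CL1 and LAC17 uncertain.

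Promoters of the lignin genes often held the AC element, a cytosine-rich motif bound by MYB factors, searched on both strands in the form ACCTACC and in its variants with ACCAACC or, as the last form, ACCTAAC, from 250 bases before to 50 bases after the annotated start in TAIR10.1 (RefSeq). It was in 10 of 17 such windows, or 58.8%, against 7.35% of the windows of all genes tested, 10.3% of those called lower and 5.93% of those called higher. The following 30-base stretches from called genes, read 5′ to 3′ along the gene with the motif in capitals, show the motif with its flanks in 6 of the genes.
CYP98A3, chr2:17060657-17060686, minus strand: ataaatcggttcACCAACCccctccctaat
4CL2, chr3:7457418-7457447, minus strand: taataacatttcACCAACCacaaattcttt
LAC11, chr5:779468-779497, minus strand: ccagagtgattcACCAACCttttcttttca
CAD5, chr4:16389161-16389190, minus strand: cattgtttgttcACCAACCcccgtggaccc
CCoAOMT1, chr4:16310184-16310213, plus strand: accaagagattcACCTACCacggtacactt
LAC17, chr5:24167923-24167952, plus strand: gctcaagcaaacACCTAACtctcctttcct
In the first 5 of these windows the motif follows the bases TTC, whereas in those of PAL1 and PAL2, which were also called lower and are not printed, it follows CTC. CYP98A3, a hydroxylase of the pathway, had 106 and 196 CPM in the pith, against 953 and 1110.4 CPM in the vascular bundle. CCoAOMT1, a methyltransferase, had 43.4 and 63.8 CPM in the pith, against 818 and 859 CPM in the vascular bundle. 4CL2, a ligase, had 3.74 and 6.88 CPM in the pith, against 75.3 and 71.2 CPM in the vascular bundle. LAC11, a laccase, had 0.991 and 2.57 CPM in the pith, against 16.6 and 20.6 CPM in the vascular bundle, and CAD5, a dehydrogenase that acts last in the soluble pathway, had 46.5 and 62.1 CPM in the pith, against 1066 and 1017 CPM in the vascular bundle. In each of them the vascular bundle libraries lay above the pith libraries by more than 4-fold. A match is a description of the sequence and does not show that a factor binds there. These genes were chosen for print because they hold the motif upstream of their start. For LAC11 the call was lost without vascular bundle replicate 2 (adjusted p = 0.0112). CYP98A3 and LAC11 also overlap another annotated gene, so their counts are uncertain.

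Most of the transcription factors listed for secondary walls were called lower. NAC master regulators activate MYB46 and MYB83, which in turn activate further MYB factors and the wall enzymes. Of 24 listed regulators 22 were tested, 15 were lower and none was higher by edgeR (DESeq2 called 0, and 0 had an unadjusted edgeR p under 0.05), with a median log2 fold change of -4.53. NAC012 (NST3), the fiber regulator, had 3.58 and 3.52 CPM in the pith libraries, against 103 and 91.7 CPM in the vascular bundle libraries, with a log2 difference of -4.78 ± 0.27 (SE) and an adjusted p of 0.000255. MYB43 had 0.275 and 0.525 CPM in the pith, against 29.97 and 22.6 CPM in the vascular bundle. NAC010 (SND3) had 0.44 and 1.58 CPM in the pith, against 51.6 and 51.5 CPM in the vascular bundle. AtMYB103, which acts on syringyl lignin, had 1.98 and 2.26 CPM in the pith, against 64.1 and 134 CPM in the vascular bundle. In these regulators, as in every called gene, the libraries of the tissues did not overlap. MYB83 reached 1.89 and 3.2 CPM in the vascular bundle but had a single count in the pith. MYB46 had 1.76 and 1.52 CPM in the pith, against 5.63 and 10.1 CPM in the vascular bundle. NAC007 (VND4), a vessel regulator, had 0.0551 and 0.368 CPM in the pith, against 2.51 and 3.8 CPM in the vascular bundle. Neither MYB46 nor NAC007 was called. In every named case except MYB46 the vascular bundle libraries were at least several times above the pith libraries. The call of MYB83 was lost without vascular bundle replicate 1 (adjusted p = 0.0411) and without vascular bundle replicate 2 (adjusted p = 0.113).

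Enzymes that loosen and remodel walls were split, with different members high in each tissue. XTH enzymes cut and rejoin xyloglucan, and expansins loosen walls without cutting them. Of 15 XTH genes tested, 3 were higher (3, 6, 3 and 3 with each library left out) and 3 lower (5, 4, 1 and 0 with each library left out). XTH32 had 1087 and 1076 CPM in the pith libraries, against 45.6 and 81.6 CPM in the vascular bundle libraries (log2 difference 4.08 ± 0.35 SE, adjusted p = 0.000441). XTH4 had 1818 and 1103 CPM in the pith, against 92.8 and 132 CPM in the vascular bundle. XTH6 had 129.7 and 122 CPM in the pith, against 15 and 23 CPM in the vascular bundle. These 3 were the higher members, and as for every called gene no pith library of theirs overlapped a vascular bundle library. The lower members included XTH9 with 29.1 and 38.3 CPM in the pith, against 106 and 133 CPM in the vascular bundle. Of 15 expansins tested, 2 were higher (1, 2, 1 and 2 with each library left out) and 4 lower. EXPA15 had 1195 and 2189.6 CPM in the pith, against 98.1 and 284 CPM in the vascular bundle. EXPA9 had 0.0551 and 0.0525 CPM in the pith, against 12.4 and 11 CPM in the vascular bundle. EXPA4 had 13.5 and 20.5 CPM in the pith, against 359.5 and 293 CPM in the vascular bundle. Both families thus held abundant members of either tissue. XTH9 lost its call without vascular bundle replicate 2 (adjusted p = 0.011). For EXPA15 the call was lost without pith replicate 1 (adjusted p = 0.0245) and without pith replicate 2 (adjusted p = 0.043).

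Among pectin-modifying genes the shares called higher and called lower were both above the 5.44% and 10.5% of all genes. Pectin methylesterases and their inhibitors had 7.02% higher and 28.1% lower, with a median log2 fold change of -0.14. Pectate lyases and polygalacturonases had 9.43% higher and 24.5% lower, with a median of 0.37. Of 57 pectin methylesterases and their inhibitors tested, 4 were higher (7, 9, 3 and 3 with each library left out) and 16 lower (18, 18, 6 and 6 with each library left out), and of 53 pectate lyases and polygalacturonases 5 were higher (6, 9, 4 and 7 with each library left out) and 13 lower (18, 15, 7 and 7 with each library left out). The higher members included AT3G10720, annotated as a pectin methylesterase or its inhibitor, with 146 and 114 CPM in the pith, against 4.02 and 6.4 CPM in the vascular bundle. AT1G80170, of the pectin lyase-like family, had 2649.5 and 2900.0 CPM in the pith, against 163 and 189 CPM in the vascular bundle, with a log2 difference of 3.97 ± 0.25 (SE) and an adjusted p of 0.000262. QRT3, a polygalacturonase of pollen separation, had 1.38 and 1.63 CPM in the pith, against 52.6 and 47 CPM in the vascular bundle. Fasciclin-like arabinogalactan proteins, which sit at the cell surface, were split too. FLA2 had 1605 and 1807 CPM in the pith, against 149 and 220.5 CPM in the vascular bundle. FLA11, linked to secondary walls, had 50.7 and 57 CPM in the pith, against 1272 and 1517 CPM in the vascular bundle. FLA12, also linked to secondary walls, had 137 and 128 CPM in the pith, against 1405 and 2545 CPM in the vascular bundle. Of 26 other arabinogalactan proteins tested, 3 were higher and 8 were lower (9, 8, 6 and 5 with each library left out). The libraries of the tissues did not overlap for the members called either way, as was so for every called gene. AGP7 had 146 and 142 CPM in the pith, against 10.7 and 19.6 CPM in the vascular bundle. AGP31 had 35.7 and 30.8 CPM in the pith, against 1383 and 932 CPM in the vascular bundle. Counts of FLA11 are uncertain because of an overlap with another gene.

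Class III peroxidases, which make or use reactive oxygen in the wall, had a larger share of higher members than genes at large. Of 27 tested, 7 were higher (7, 7, 4 and 5 with each library left out), or 25.9%, and 3 lower (13, 10, 3 and 1 with each library left out), although the median log2 fold change was -1.69. Besides AT2G38380, AT2G37130 had 109.8 and 76 CPM in the pith, against 7.81 and 6.01 CPM in the vascular bundle (log2 difference 3.75 ± 0.31 SE, adjusted p = 0.000434). On the other side AT4G37520 had 25.2 and 17.9 CPM in the pith, against 143 and 112 CPM in the vascular bundle. RCI3, which is not called, had 4.07 and 3.63 CPM in the pith, against 10.6 and 14.3 CPM in the vascular bundle.

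Intracellular immune receptors had more higher than lower members in the pith. NLR proteins recognise pathogen effectors inside the cell, and helper NLRs of the ADR1 group pass on the signal. Of 159 annotated receptors of the TIR and CC classes, 102 were tested, 15 were higher (28, 49, 4 and 5 with each library left out), which is 14.7% against 5.44% of all genes, and 1 was lower (6, 5, 0 and 0 with each library left out). The median log2 fold change was 0.95, and 83 of the 102 had a positive one. AT5G38340 had 24.7 and 21.1 CPM in the pith libraries, against 0.379 and 1.19 CPM in the vascular bundle libraries, with a log2 difference of 4.83 ± 0.54 (SE) and an adjusted p of 0.0012. RLM3, which acts against necrotrophic fungi, had 679 and 556 CPM in the pith, against 84.8 and 119 CPM in the vascular bundle. AT1G58602 had 299 and 137 CPM in the pith, against 24 and 33 CPM in the vascular bundle. The helper genes ADR1-L2 and ADR1-L1 came from the hypersensitive cell death list below and were not among these 102. ADR1-L2 had 213 and 208 CPM in the pith, against 34.6 and 22.3 CPM in the vascular bundle (log2 difference 2.89 ± 0.29 SE, adjusted p = 0.000805). ADR1-L1 had 653 and 379 CPM in the pith, against 92.3 and 75 CPM in the vascular bundle, with a log2 difference of 2.62 ± 0.33 (SE) and an adjusted p of 0.00176. ADR1 itself, chosen after its values were seen, had 78.3 and 68.6 CPM in the pith, against 13.7 and 14.5 CPM in the vascular bundle (log2 difference 2.37 ± 0.24 SE, adjusted p = 0.000832). In each of these, as in every gene called higher, both pith libraries lay above both vascular bundle libraries. RPS6, not called, had 207 and 119.8 CPM in the pith, against 58.9 and 56.9 CPM in the vascular bundle. Members in clusters of near-identical copies share reads, and 50-base reads that fit several copies were not counted. For AT5G38340 the log2 fold change ranged from 4.29 to 5.91 with single libraries left out. AT1G58602 and ADR1-L1 share positions with another annotated gene, which makes their counts uncertain.

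The W-box, the motif of WRKY factors, searched as TTGACC or TTGACT on both strands, was in 53.9% of the 102 NLR promoter windows, against 32.1% of all windows, 32.7% of those called higher and 27.1% of those called lower. Of the 15 NLR genes called higher, 6 held it. AT5G38340 is shown as the member with the largest change, with the motif in capitals, from TAIR10.1.
AT5G38340, chr5:15320270-15320299, plus strand: atttattgttgtTTGACTtttatgtgtcgg

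Receptors at the cell surface differed by class. Wall-associated kinases, which bind pectin, had 3 of 9 tested members higher (4, 5, 3 and 3 with each library left out) and none lower by edgeR (DESeq2 called 0, and 1 had an unadjusted edgeR p under 0.05, while edgeR called 0, 1, 0 and 0 with each library left out). WAK1 had 664 and 421 CPM in the pith libraries, against 69.8 and 94.4 CPM in the vascular bundle libraries, with a log2 difference of 2.72 ± 0.32 (SE) and an adjusted p of 0.00138. WAK2 had 322 and 236 CPM in the pith, against 39.5 and 70.02 CPM in the vascular bundle. Of 31 receptor-like proteins, which lack a kinase, 5 were higher (4, 12, 3 and 3 with each library left out) and 3 lower (5, 6, 1 and 1 with each library left out), led by RLP42 with 1032 and 565 CPM in the pith, against 49.5 and 45.5 CPM in the vascular bundle. Leucine-rich repeat receptor kinases went mainly the other way, with 6 of 121 higher (14, 14, 5 and 4 with each library left out) and 34 lower. MEE62 had 1083 and 801 CPM in the pith, against 121 and 117 CPM in the vascular bundle. AT5G56040 had 324 and 389 CPM in the pith, against 62.6 and 57.3 CPM in the vascular bundle. Both were among the higher ones. AT5G63710, among the lower ones, had 0 and 0.158 CPM in the pith, against 14.5 and 8.27 CPM in the vascular bundle. FER, a receptor kinase of the RALF peptides, had 202 and 269 CPM in the pith, against 107 and 104 CPM in the vascular bundle, and was not called. Because of overlapping genes, the counts of WAK2 are uncertain.

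Salicylate-linked genes were called in both directions. WRKY70, a regulator downstream of salicylate, had 275 and 145 CPM in the pith libraries, against 38.3 and 31.1 CPM in the vascular bundle libraries (log2 difference 2.60 ± 0.36 SE, adjusted p = 0.00247). CBP60G, an activator of salicylate synthesis, had 11.9 and 8.72 CPM in the pith, against 1.37 and 1.66 CPM in the vascular bundle. The output gene PR5, a thaumatin-like protein, went the other way with 0.165 and 0.315 CPM in the pith, against 67.4 and 67.7 CPM in the vascular bundle, with a log2 difference of -8.09 ± 0.39 (SE) and an adjusted p of 0.000255, as did ACD6, an ankyrin membrane protein of this pathway, with 1.05 and 0.525 CPM in the pith, against 30.6 and 70.6 CPM in the vascular bundle. In total 3 of 16 tested members were higher (5, 6, 1 and 2 with each library left out) and 2 lower. PAD4 had 169 and 56.2 CPM in the pith, against 33.4 and 48.2 CPM in the vascular bundle, and was not called. Of 17 genes of pattern-triggered immunity 1 was higher (1, 3, 0 and 0 with each library left out) and 3 were lower (4, 4, 0 and 1 with each library left out), with a median log2 fold change of -0.29. The call of CBP60G was lost without vascular bundle replicate 1 (adjusted p = 0.0369) and without vascular bundle replicate 2 (adjusted p = 0.0277).

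Genes called on the hypersensitive cell death list were mostly higher, and those on the developmental cell death list were lower. Of 20 tested genes of the hypersensitive list, which includes the ADR1 helpers, 6 were higher (8, 9, 3 and 4 with each library left out) and 1 was lower. MC2, a metacaspase, had 10.2 and 6.2 CPM in the pith, against 0.0473 and 0.512 CPM in the vascular bundle. BAP1, an inhibitor of cell death, had 14.3 and 5.04 CPM in the pith, against 1.23 and 0.853 CPM in the vascular bundle. BI1, a further death suppressor that was not called, had 297 and 510.0 CPM in the pith, against 262 and 298 CPM in the vascular bundle. Of 9 tested genes of developmental death, 7 were lower (7, 8, 4 and 4 with each library left out) and none was higher by edgeR (DESeq2 called 0, and 0 had an unadjusted edgeR p under 0.05). The members of that list that moved are proteases and nucleases of differentiating xylem and other dying tissues. BFN1, a nuclease, had no count in the pith and 1.89 and 1.19 CPM in the vascular bundle, at least 9.57-fold lower in the pith. The senescence list was split, with 3 higher (5, 4, 1 and 2 with each library left out) and 3 lower (4, 3, 1 and 1 with each library left out) of 14. GLN1;4, a glutamine synthetase, had 111 and 144 CPM in the pith, against 1318 and 1562 CPM in the vascular bundle, and SAG21, with 436 and 81.6 CPM in the pith, against 27.4 and 28.1 CPM in the vascular bundle, did not pass the test. MC2 lost its call without vascular bundle replicate 1 (adjusted p = 0.0145). For BAP1 the call was lost without vascular bundle replicate 1 (adjusted p = 0.0273) and without vascular bundle replicate 2 (adjusted p = 0.0501). The call of BFN1 was lost without vascular bundle replicate 1 (adjusted p = 0.131) and without vascular bundle replicate 2 (adjusted p = 0.0735). Overlapping annotation makes the counts of SAG21 uncertain.

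Calcium entry channels had a larger share of higher members than genes at large. Of 28 cyclic nucleotide-gated channels and glutamate receptors 7 were higher (9, 9, 3 and 4 with each library left out) and 2 lower (5, 6, 1 and 0 with each library left out), a share higher of 25%. CNGC4, a channel of defence signalling, had 71.5 and 96.3 CPM in the pith libraries, against 2.32 and 5.63 CPM in the vascular bundle libraries (log2 difference 4.39 ± 0.46 SE, adjusted p = 0.00093). CNGC13 had 36.6 and 45.2 CPM in the pith, against 3.17 and 4.31 CPM in the vascular bundle. CNGC12 had 75.4 and 53.7 CPM in the pith, against 13.7 and 14.2 CPM in the vascular bundle. For all 3 channels each pith library was at least 3 times above each vascular bundle library. Calmodulin-like and EF-hand proteins, which bind calcium, had 9 of 65 members higher (10, 15, 5 and 7 with each library left out) and 7 lower (9, 15, 6 and 3 with each library left out). CML41 had 185 and 48.9 CPM in the pith, against 0.994 and 3.71 CPM in the vascular bundle. AT3G03000 had 50.5 and 27.3 CPM in the pith, against 3.93 and 3.75 CPM in the vascular bundle. MSS3, an EF-hand protein, went the other way with 2.59 and 2.89 CPM in the pith, against 71.9 and 46 CPM in the vascular bundle. CML41 lost its call without pith replicate 1 (adjusted p = 0.0223), without vascular bundle replicate 1 (adjusted p = 0.0174) and without vascular bundle replicate 2 (adjusted p = 0.0107). For CNGC4 the log2 fold change ranged from 3.93 to 5.18 with single libraries left out. CNGC12 also overlaps another annotated gene, so its counts are uncertain.

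**Figure D3:**
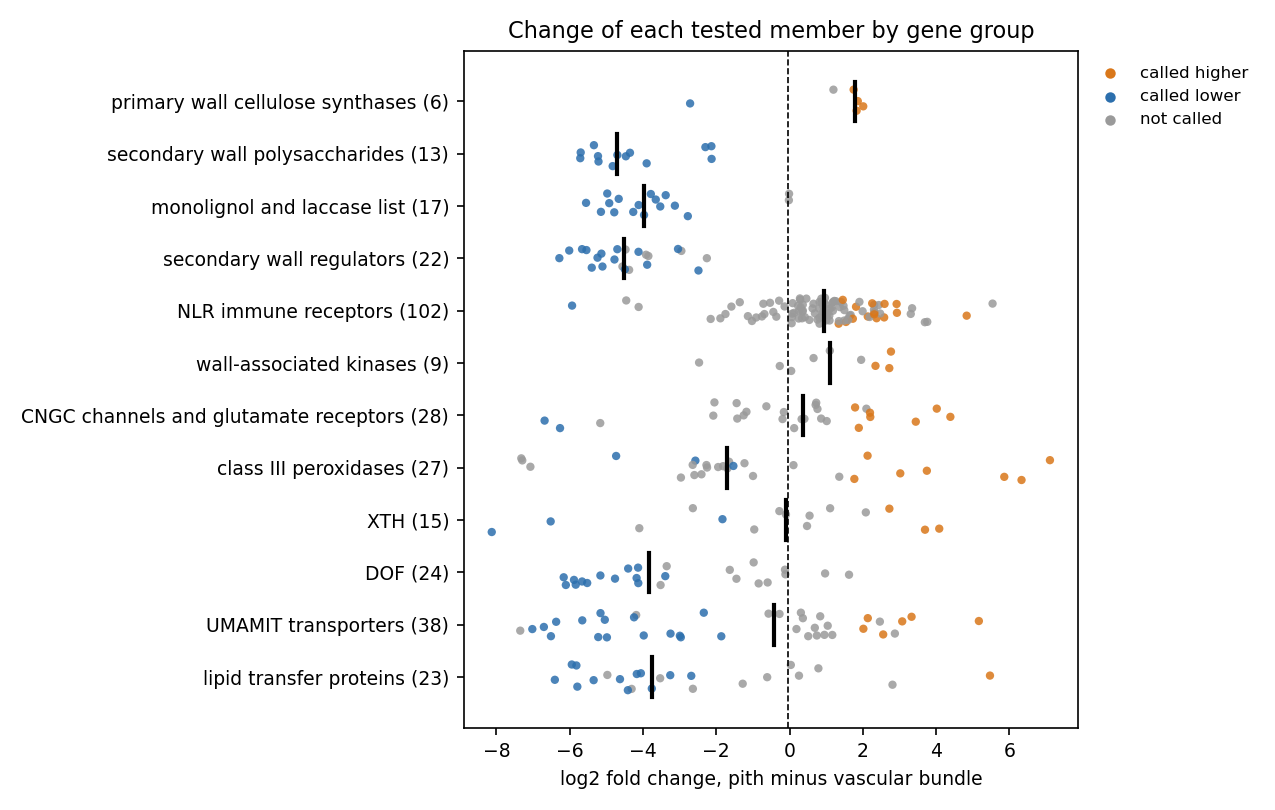
Log2 fold change (pith minus vascular bundle) of each tested member of 12 gene groups, one point a gene, filled orange where called higher, blue where called lower and grey where not called. The black bar is the group median and the dashed line the median of all tested genes, -0.04, and genes without a count in one tissue are drawn at their fitted value. NLR receptors and primary wall cellulose synthases lie mostly to the right of it, and secondary wall, lignin, DOF and lipid transfer protein genes mostly to the left.

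Transcription factors were called lower in the pith more often than higher. Of 1309 annotated in the families examined, 695 were tested, 49 were higher (80, 93, 27 and 21 with each library left out), or 7.05%, and 126 lower (209, 220, 59 and 67 with each library left out), or 18.1%. Among those higher with at least 50 counts in each pith library, NAC058 had the largest change. It had 4.9 and 20.9 CPM in the pith libraries, against 0 and 0.256 CPM in the vascular bundle libraries, with a log2 difference of 6.53 ± 1.15 (SE) and an adjusted p of 0.00618. HSFA7A, a heat shock factor, had 12.5 and 8.67 CPM in the pith libraries, against 0.142 and 0.426 CPM in the vascular bundle libraries (log2 difference 5.17 ± 0.62 SE, adjusted p = 0.00155). IDD7, a zinc finger protein of the indeterminate domain family, was the most abundant of the 12 most changed by CPM, with 319.7 and 378 CPM in the pith libraries, against 19.6 and 20.3 CPM in the vascular bundle libraries, with a log2 difference of 4.13 ± 0.25 (SE) and an adjusted p of 0.000258. All 3 were above 4 CPM in each pith library, with NAC058 the most variable between replicates. AT3G45260 of the same C2H2 class as IDD7 had 38.7 and 29.7 CPM in the pith, against 2.51 and 2.69 CPM in the vascular bundle. MYB13 had 10.2 and 5.25 CPM in the pith, against 0.616 and 0.299 CPM in the vascular bundle. NAC047 had 15.1 and 7.78 CPM in the pith, against 1.18 and 0.341 CPM in the vascular bundle. Both were below 20 CPM in every library. For MYB13 the call was lost without vascular bundle replicate 1 (adjusted p = 0.0105) and without vascular bundle replicate 2 (adjusted p = 0.0265). The call of NAC047 was lost without vascular bundle replicate 2 (adjusted p = 0.0196). For NAC058 the log2 fold change ranged from 5.14 to 10.96 with single libraries left out. For HSFA7A the log2 fold change ranged from 4.65 to 6.17 with single libraries left out.

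Related homeobox genes were split between the tissues. HD-ZIP III factors pattern the vasculature and the upper side of organs. Of these ATHB-15 had 1381 and 1584 CPM in the pith libraries, against 316 and 302 CPM in the vascular bundle libraries (log2 difference 2.26 ± 0.23 SE, adjusted p = 0.000783). PHV had 127 and 124 CPM in the pith, against 44.6 and 36.3 CPM in the vascular bundle. Their relatives HB-8 and PHB were lower. HB-8, which marks procambium, had 3.58 and 9.56 CPM in the pith, against 169 and 125 CPM in the vascular bundle. PHB had 2.92 and 5.52 CPM in the pith, against 87.3 and 87.5 CPM in the vascular bundle. REV had 60.8 and 63 CPM in the pith, against 99 and 87.3 CPM in the vascular bundle, and was not called. Among KNOX and BELL genes, which act in meristems and in differentiation, 3 were higher and 3 lower of 14. KNAT4 had 205 and 158 CPM in the pith, against 35.8 and 34.3 CPM in the vascular bundle. STM, the main meristem gene, had 192 and 203 CPM in the pith, against 59 and 47.2 CPM in the vascular bundle. KNAT7, which acts in secondary walls, went the other way with 32.3 and 35.5 CPM in the pith, against 262 and 296 CPM in the vascular bundle. KNAT1 had 185 and 199 CPM in the pith, against 107 and 165 CPM in the vascular bundle, and was not called. Zinc finger homeodomain genes were split too. HB25 had 9.3 and 17.6 CPM in the pith, against 0.758 and 0.81 CPM in the vascular bundle. HB30 had 7.71 and 5.78 CPM in the pith, against 87.6 and 83.1 CPM in the vascular bundle. In the HD-ZIP I family HB-12, which responds to abscisic acid, had 131 and 94.9 CPM in the pith, against 25.2 and 15 CPM in the vascular bundle, and in the HD-ZIP II family HAT2, an auxin-responsive gene, had 15 and 21.3 CPM in the pith, against 411 and 194 CPM in the vascular bundle. PHV lost its call without vascular bundle replicate 2 (adjusted p = 0.0222). Counts of REV are uncertain because of an overlap with another gene.

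**Figure D4:**
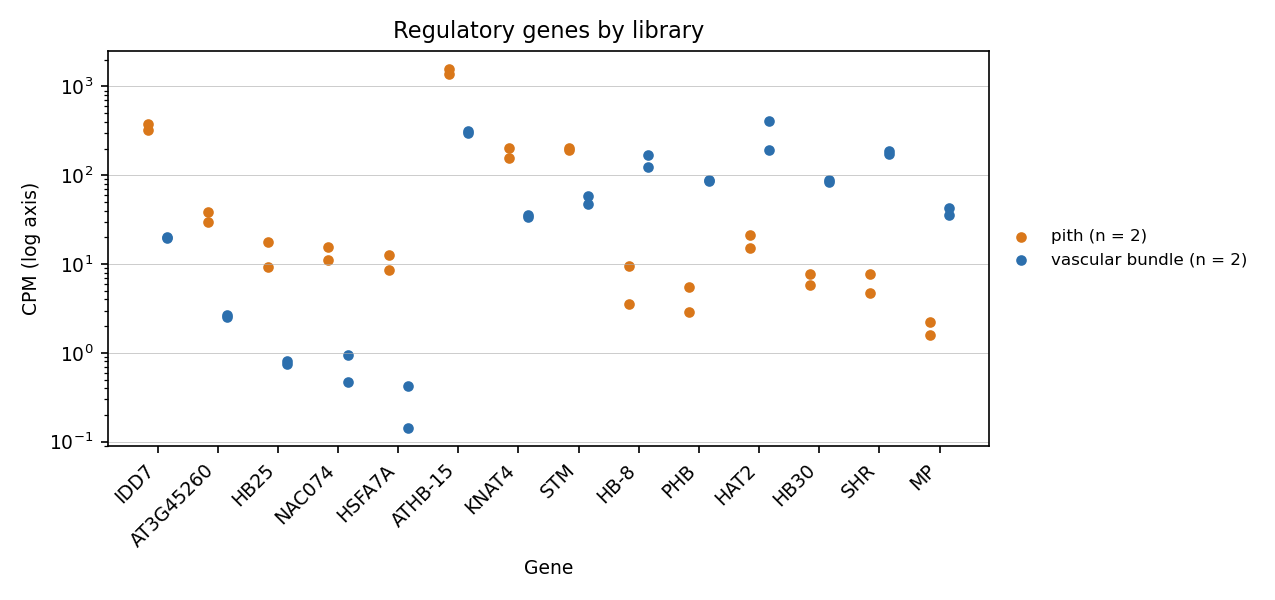
CPM (log axis) of 14 regulatory genes in each library, pith replicates in orange left of vascular bundle replicates in blue. The pith points of IDD7, AT3G45260, HB25, NAC074, HSFA7A, ATHB-15, KNAT4 and STM lie above the vascular bundle points, and those of HB-8, PHB, HAT2, HB30, SHR and MP below them.

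Among the lower regulators were many of vascular development. DOF factors, several of which act in phloem and cambium, had 13 of 24 tested members lower (17, 17, 5 and 7 with each library left out) and none higher by edgeR (DESeq2 called 0, and 2 had an unadjusted edgeR p under 0.05, while edgeR called 1, 1, 0 and 0 with each library left out), so that 54.2% were lower, against 10.5% of all genes, with a median of -3.82. HCA2, which promotes cambial division, had 0.0551 and 0.788 CPM in the pith libraries, against 35.8 and 26.1 CPM in the vascular bundle libraries, with a log2 difference of -6.16 ± 0.75 (SE) and an adjusted p of 0.00163. OBP4, the most abundant member not called, had 282 and 300.0 CPM in the pith, against 152 and 145 CPM in the vascular bundle. Auxin response factors and Aux/IAA repressors had 9 of 36 lower (14, 13, 4 and 5 with each library left out) and none higher by edgeR (DESeq2 called 1, and 4 had an unadjusted edgeR p under 0.05, while edgeR called 2, 0, 0 and 0 with each library left out). MP, the auxin response factor of vascular patterning, had 1.6 and 2.21 CPM in the pith, against 43.2 and 35.4 CPM in the vascular bundle. R2R3 MYB genes had 19 of 56 lower (28, 27, 9 and 10 with each library left out) and 3 higher (5, 6, 0 and 0 with each library left out). SHR, the GRAS factor that moves between cell layers, had 4.68 and 7.72 CPM in the pith, against 190.0 and 172 CPM in the vascular bundle (log2 difference -4.87 ± 0.33 SE, adjusted p = 0.000285). Some of the most changed were regulators of the epidermis and its guard cells, whose markers were also in the vascular bundle libraries. ATML1, of epidermal identity, had 0.11 and 0.42 CPM in the pith, against 28.9 and 36 CPM in the vascular bundle. FMA (FAMA), of guard cells, had 0 and 0.0525 CPM in the pith, against 3.79 and 3.88 CPM in the vascular bundle. MYB60, of guard cells, had 0 and 0 CPM in the pith, against 2.89 and 3.37 CPM in the vascular bundle. For FMA the call was lost without vascular bundle replicate 1 (adjusted p = 0.0237) and without vascular bundle replicate 2 (adjusted p = 0.0254). The call of MYB60 was lost without vascular bundle replicate 1 (adjusted p = 0.0233) and without vascular bundle replicate 2 (adjusted p = 0.0323). For HCA2 the log2 fold change ranged from -8.99 to -5.28 with single libraries left out. MP shares positions with another annotated gene, which makes its counts uncertain.

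Transport genes were called in both directions within most families. Aquaporins had 2 higher (6, 2, 2 and 3 with each library left out) and 8 lower of 22. PIP2E, a plasma membrane aquaporin, had 523 and 645 CPM in the pith libraries, against 21.7 and 41.8 CPM in the vascular bundle libraries, with a log2 difference of 4.20 ± 0.38 (SE) and an adjusted p of 0.000569. PIP1;4 had 559 and 862 CPM in the pith, against 150.3 and 147 CPM in the vascular bundle. PIP3 had 25.8 and 36.3 CPM in the pith, against 568 and 503 CPM in the vascular bundle. PIP2;8, also of the plasma membrane, had 5.01 and 2.21 CPM in the pith, against 72.2 and 63.5 CPM in the vascular bundle. Among these called members, different ones were thus higher in each tissue. PIP1;5, not called, was above all of them in both tissues. It had 4149 and 7070 CPM in the pith, against 1511 and 2115 CPM in the vascular bundle. Of 38 UMAMIT amino acid exporters 6 were higher (8, 8, 3 and 5 with each library left out) and 16 lower (17, 18, 6 and 9 with each library left out). UMAMIT33 had 39.3 and 24.2 CPM in the pith, against 0.947 and 0.81 CPM in the vascular bundle. UMAMIT44 had 348 and 304 CPM in the pith, against 36.7 and 40.5 CPM in the vascular bundle. The amino acid permeases AAP2 and AAP4, known from vascular cells, were lower. AAP2 had 43.6 and 56.9 CPM in the pith, against 3769 and 1871 CPM in the vascular bundle. AAP4 had 5.89 and 6.78 CPM in the pith, against 329.5 and 185 CPM in the vascular bundle. Among the higher transporters of this class, the cationic amino acid transporter gene CAT3 (AT5G36940) had 271 and 328 CPM in the pith, against 50.1 and 61.7 CPM in the vascular bundle. PUT1, a polyamine transporter, had 106 and 141 CPM in the pith, against 9.8 and 16.6 CPM in the vascular bundle. Because of overlapping genes, the counts of UMAMIT33 are uncertain.

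Sugar, nitrate and auxin carriers were split likewise. SUC2, which loads sucrose into phloem, had 42.3 and 53.3 CPM in the pith libraries, against 936 and 632 CPM in the vascular bundle libraries (log2 difference -4.04 ± 0.31 SE, adjusted p = 0.000345). In contrast STP7, a monosaccharide importer, had 110.3 and 154 CPM in the pith, against 13.4 and 16.8 CPM in the vascular bundle. SWEET13 had 0.11 and 0.42 CPM in the pith, against 15.4 and 8.61 CPM in the vascular bundle. SWEET17, a vacuolar fructose carrier, had 323 and 512 CPM in the pith, against 194 and 239.8 CPM in the vascular bundle, and was not called. Of 6 nitrate transporters NRT1.1 was higher, with 57.2 and 161 CPM in the pith, against 5.59 and 12.2 CPM in the vascular bundle, and NRT1.7, which removes nitrate from old leaves by the phloem, was among the 3 that were lower, with 4.68 and 7.46 CPM in the pith, against 116 and 110.0 CPM in the vascular bundle. For auxin, EIR1 (PIN2) had 7.71 and 13.1 CPM in the pith libraries, against 0.237 and 0.512 CPM in the vascular bundle libraries, with a log2 difference of 4.76 ± 0.59 (SE) and an adjusted p of 0.00176, although its level was low. The influx carrier LAX2 had 3.08 and 4.05 CPM in the pith, against 128 and 155 CPM in the vascular bundle. The efflux carrier PIN3 had 2.86 and 2.05 CPM in the pith, against 22.5 and 26.1 CPM in the vascular bundle. LAX2 and PIN3 were both lower, as was WAT1, a vacuolar auxin carrier. WAT1 had 239 and 345 CPM in the pith, against 3982 and 3794 CPM in the vascular bundle. In all 2 of 14 auxin transport genes were higher (3, 3, 1 and 1 with each library left out) and 6 lower (7, 7, 4 and 3 with each library left out). NRT1.1 lost its call without vascular bundle replicate 1 (adjusted p = 0.0127). For EIR1 the log2 fold change ranged from 4.32 to 5.43 with single libraries left out. Overlapping annotation makes the counts of STP7 uncertain.

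In carbon metabolism, 3 of 25 tested starch and sucrose genes were higher and 7 lower (12, 11, 4 and 5 with each library left out). ATBETAFRUCT4, a vacuolar invertase that splits stored sucrose, had 251 and 226 CPM in the pith libraries, against 52.2 and 42.6 CPM in the vascular bundle libraries (log2 difference 2.33 ± 0.24 SE, adjusted p = 0.000868). APL3, a subunit of ADP-glucose pyrophosphorylase in starch synthesis, had 488 and 455 CPM in the pith, against 117 and 120.1 CPM in the vascular bundle. CT-BMY (BAM3), a starch-degrading amylase of chloroplasts, had 10.8 and 7.67 CPM in the pith, against 459 and 365 CPM in the vascular bundle. AMY1, an alpha-amylase, had 0.385 and 1.05 CPM in the pith, against 68.3 and 81.8 CPM in the vascular bundle. SUS4, a sucrose synthase, had 0.0551 and 0.105 CPM in the pith, against 7.67 and 6.78 CPM in the vascular bundle. The synthetic subunit and the invertase were thus higher in the pith while CT-BMY, AMY1 and SUS4 were lower. A further 15 members were not called, the amylase genes BAM1 and AMY3 among them. CT-BMY and AMY1 also overlap another annotated gene, so their counts are uncertain.

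Photosystem and light-harvesting genes had 18 of 57 tested members lower (21, 20, 6 and 10 with each library left out) and none higher by edgeR (DESeq2 called 0, and 0 had an unadjusted edgeR p under 0.05), with a median log2 fold change of -0.79. LHB1B1 had 15 and 9.2 CPM in the pith, against 246 and 358 CPM in the vascular bundle. CAB2 had 68 and 26.2 CPM in the pith, against 592 and 457 CPM in the vascular bundle. CAB1, not called, had 2323 and 1782 CPM in the pith, against 4004 and 2888 CPM in the vascular bundle. In all 39 of the 57 were not called. The 60 annotated members summed to 19969 and 18007.6 CPM in the pith libraries, against 38283.5 and 36672.3 CPM in the vascular bundle libraries. The G-box, searched as CACGTG, was in 33.9% of their promoter windows, against 8.97% of all windows, 8.94% of those called higher and 8.38% of those called lower. Counts of CAB1 are uncertain because of an overlap with another gene.

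Of the genes called in the annotated lipid transfer protein family and the flavonoid list, all but AT2G45180 were lower. AZI1, the lipid transfer-like gene given above as higher, was not in this family by its annotated name. Of 23 lipid transfer proteins 12 were lower and 1 was higher (1, 2, 1 and 1 with each library left out). LTPG2, which exports wax, had 0.275 and 0.42 CPM in the pith, against 24.7 and 35.3 CPM in the vascular bundle. LTP3 had 10.4 and 12 CPM in the pith, against 712 and 663 CPM in the vascular bundle. AT2G45180, the member called higher, had 1682 and 1965 CPM in the pith, against 22.3 and 59.8 CPM in the vascular bundle. The wax genes CER1 and ABCG12, both epidermis markers, were lower too. CER1, which makes wax alkanes, had 2.09 and 2.26 CPM in the pith, against 206 and 216 CPM in the vascular bundle. ABCG12, a wax exporter, had 0.826 and 2.68 CPM in the pith, against 249 and 349 CPM in the vascular bundle. Of 8 flavonoid genes tested 4 were lower (5, 7, 0 and 1 with each library left out) and none was higher by edgeR (DESeq2 called 0, and 0 had an unadjusted edgeR p under 0.05), all at under 10 CPM in each tissue. Their median log2 fold change was -3.77 (-2.76 with members lacking counts at their bound). FLS1, not called, had 0.826 and 3.36 CPM in the pith, against 3.98 and 5.76 CPM in the vascular bundle. The summed epidermis markers differed in the same direction, as the sums given above show, and their part in these values was not tested.

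Cytochromes P450 and glycosyltransferases modify small molecules. For both, the shares called higher and called lower were above the 5.44% and 10.5% of all genes. The share of glycosyltransferases called higher was only slightly above it. Of 117 P450 genes 17 were higher, or 14.5% (20, 20, 9 and 12 with each library left out), and 22 lower, or 18.8% (34, 33, 13 and 14 with each library left out). CYP710A2, a sterol desaturase, had 88.6 and 68.7 CPM in the pith libraries, against 3.08 and 2.09 CPM in the vascular bundle libraries, with a log2 difference of 4.93 ± 0.34 (SE) and an adjusted p of 0.000285. CYP71B4 had 0 and 0.158 CPM in the pith, against 15 and 16.5 CPM in the vascular bundle. Of 73 glycosyltransferases 5 were higher, or 6.85% (5, 8, 3 and 3 with each library left out) and 16 lower, or 21.9% (24, 26, 7 and 9 with each library left out). UGT72E2, which glucosylates monolignols, had 61.4 and 102 CPM in the pith, against 1.75 and 3.24 CPM in the vascular bundle, in contrast to the monolignol synthesis genes, and UGT76D1 had 8.31 and 7.72 CPM in the pith, against 0.142 and 0.213 CPM in the vascular bundle.

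Genes of the ethylene, jasmonate and gibberellin lists were called in few cases. In the ethylene list of 15 tested genes, the receptor ETR2 was higher, with 826 and 614 CPM in the pith libraries, against 88.3 and 51.2 CPM in the vascular bundle libraries (log2 difference 3.37 ± 0.35 SE, adjusted p = 0.000895). The other receptors and EIN3, the main transcription factor, were not called, EIN3 having 209 and 232 CPM in the pith, against 167 and 166 CPM in the vascular bundle. Of 25 genes of the abscisic acid and osmotic response, 1 was higher (3, 2, 1 and 1 with each library left out) and 4 were lower (8, 8, 3 and 5 with each library left out). RD22 had 37.4 and 48.3 CPM in the pith, against 3386 and 4215 CPM in the vascular bundle. RAB18, a dehydrin, had 0.496 and 0.788 CPM in the pith, against 157 and 123 CPM in the vascular bundle. Both are known to respond to drought. LTI78, not called, had 1429 and 1207 CPM in the pith, against 1518 and 1318 CPM in the vascular bundle. Of 19 jasmonate genes 1 was higher (2, 2, 1 and 0 with each library left out) and 1 lower (7, 5, 0 and 0 with each library left out), and of 12 gibberellin genes none was higher by edgeR (DESeq2 called 0, and 3 had an unadjusted edgeR p under 0.05, while edgeR called 2, 0, 0 and 0 with each library left out) and 1 was lower (3, 3, 0 and 0 with each library left out). RAB18 shares positions with another annotated gene, which makes its counts uncertain.

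CLE genes encode small secreted peptides that signal through receptor kinases. Of 8 tested, AT5G59305 (CLE46) alone was called higher, with 112 and 82.4 CPM in the pith libraries, against 5.3 and 4.56 CPM in the vascular bundle libraries, with a log2 difference of 4.29 ± 0.29 (SE) and an adjusted p of 0.000285. CLE41, whose peptide is sent by phloem to the PXY receptor, had 2.04 and 0.946 CPM in the pith libraries, against 32.3 and 20.00 CPM in the vascular bundle libraries (log2 difference -4.13 ± 0.49 SE, adjusted p = 0.00143). CLE25 had 0.385 and 0.42 CPM in the pith, against 21 and 17.7 CPM in the vascular bundle. CLE42 had 0 and 0.21 CPM in the pith, against 6.53 and 6.35 CPM in the vascular bundle. CLE41 and CLE42 were thus called lower, while PXY was not called. CLE44, a further ligand of PXY that was not called, had 2.42 and 0.158 CPM in the pith, against 4.69 and 5.97 CPM in the vascular bundle. For CLE42 the call was lost without vascular bundle replicate 1 (adjusted p = 0.0169) and without vascular bundle replicate 2 (adjusted p = 0.0154). For CLE41 the log2 fold change ranged from -4.78 to -3.68 with single libraries left out. Because of overlapping genes, the counts of CLE44 are uncertain.

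Cell division genes were called only lower in the pith. Of 14 tested 7 were lower (11, 11, 1 and 0 with each library left out) and none was higher by edgeR (DESeq2 called 0, and 0 had an unadjusted edgeR p under 0.05). CYCB1;4, a mitotic cyclin, had 0 and 0.263 CPM in the pith, against 5.16 and 7.21 CPM in the vascular bundle. CYC1BAT, a B-type cyclin gene, had 0.22 and 0 CPM in the pith, against 7.39 and 6.95 CPM in the vascular bundle. Of 37 kinesins 10 were lower (19, 15, 3 and 3 with each library left out) and 1 higher (1, 3, 0 and 0 with each library left out), and of 39 histones 7 were lower (13, 11, 0 and 0 with each library left out) and none was higher by edgeR (DESeq2 called 0, and 1 had an unadjusted edgeR p under 0.05). HTA11, a histone variant, had 0.991 and 1.47 CPM in the pith, against 12.3 and 10.1 CPM in the vascular bundle. Other large families stayed near or under the background shares. Of 304 ribosomal protein genes 3 were higher (9, 13, 1 and 1 with each library left out) and 5 lower (31, 18, 1 and 1 with each library left out), of 51 phosphatases 2C, 2 were higher (4, 4, 0 and 0 with each library left out) and 1 lower (3, 5, 0 and 0 with each library left out), and of 30 CCCH zinc finger genes none was called higher by edgeR (DESeq2 called 2, and 6 had an unadjusted edgeR p under 0.05, while edgeR called 3, 3, 0 and 0 with each library left out) and none lower by edgeR (DESeq2 called 0, and 1 had an unadjusted edgeR p under 0.05). The call of CYCB1;4 was lost without vascular bundle replicate 1 (adjusted p = 0.0155) and without vascular bundle replicate 2 (adjusted p = 0.0379). CYC1BAT lost its call without vascular bundle replicate 1 (adjusted p = 0.0145) and without vascular bundle replicate 2 (adjusted p = 0.0119). For HTA11 the call was lost without vascular bundle replicate 1 (adjusted p = 0.0286) and without vascular bundle replicate 2 (adjusted p = 0.0127).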

How the data were processed

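RNA from tissue cut by laser capture microdissection was amplified in 2 rounds and sequenced as 50-base single reads. The deposited table holds whole-number counts of reads per gene, which the authors made by aligning untrimmed reads to the TAIR10 genome with STAR 2.5.0a, keeping reads with 1 position and counting those over a gene, introns included and strand ignored, with R 3.5.0. Reads over 2 genes were not counted. Amplification favours some fragments, and counting error was not separated from it. From these counts the 4 libraries were fitted in edgeR 4.0.16 (filterByExpr, TMM, robust quasi-likelihood) without a replicate term, and p-values were adjusted by the Benjamini-Hochberg method over all 18063 genes tested. The standard error of a log2 fold change was derived from its F statistic. The edgeR test was tested on simulated data of 17923 genes for this comparison, in which 54% of genes set 4-fold higher, 42% of those set 4-fold lower and 100% of those set 16-fold either way were recovered. The simulated spread between replicates was assumed from a gene's mean count, alike in both tissues, and was not estimated from these libraries. Only genes above a mean of 50 counts were changed. TPM used exonic lengths from the TAIR10.1 annotation of RefSeq, which also gave gene names, families, overlaps and promoters. Alternatives were DESeq2 1.42.0, other scalings, filters and thresholds, all 6 libraries in 1 fit, and each library left out. Per list or family, up to 4 called members each way by size of change and up to 2 uncalled members by CPM could be named, besides the 10 genes most changed each way, the 12 transcription factors most changed each way, the 10 genes of highest pith TPM and the marker genes. The rankings by change took only called genes with at least 100 counts in each library of the higher tissue, or 50 counts for transcription factors. The members and lists were chosen with earlier results of these data known. CYP98A3, CCoAOMT1, 4CL2, LAC11, CAD5, ADR1 and CRT3 lie outside the naming rule and were chosen after their values were seen.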

Additional observations from a re-analysis of the deposited data

How the results depend on the processing

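Of 161 called genes named with values none changed direction under any alternative. Under DESeq2, its size factors in edgeR, library totals and a filter of at least 10 counts, between 160 and 161 kept their call, against 155 with no filter and 149 with all 6 libraries in 1 fit. Without vascular bundle replicate 1 or 2, 144 and 141 kept their call, against 158 and 159 without pith replicate 1 or 2, and 132 kept it under all of these. The genes called higher were 982, but 1640 with DESeq2, 400 when edgeR tested against a fold of 2 with glmTreat, 1818 at an adjusted p below 0.05, and from 471 to 2072 with single libraries left out. The genes called lower were 1888, but 1240 with glmTreat, 3247 at an adjusted p below 0.05, and from 960 to 3470 with single libraries left out. The groups described held 602 called genes, and between 330 and 971 with single libraries left out, when fewer libraries enter the fit and the lone one is assumed to vary like the pair. Of 100 group counts 21 moved by over 1.5 times with DESeq2, 17 with no filter, 12 with all 6 libraries, 7 with library totals and 2 with the filter of 10 counts, besides 48 and 43 without vascular bundle replicate 1 or 2, and 37 and 38 without pith replicate 1 or 2. With library totals the share of calls that were higher was 25.9%, against 34.2% with TMM. The uncalled genes OMT1 and LTI78 changed sign with single libraries left out, the log2 fold change of OMT1 ranging from -0.24 to 0.19 and that of LTI78 from -0.23 to 0.038, against -0.01 and -0.11 in the full fit. The cause of these differences was not tested. No paired analysis was made because the labels give the libraries no replicate numbers that the tissues share. Since the bundle was cut after the phloem cap and the pith, the libraries may still be paired, and the fit did not use this. With 2 libraries a tissue and an assumed spread between replicates, changes near 4-fold were recovered in about 1 of 2 simulated cases. A gene not called may thus still differ, and the recovery in the real libraries is not known.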

Other observations

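Genes of brassinosteroid synthesis and signalling, growth-promoting steroid hormones of plants, were listed after the values had been seen. Of 19 listed 16 were tested, 3 were higher in the pith (5, 3, 3 and 3 with each library left out) and 2 lower (4, 2, 1 and 1 with each library left out), against 5.44% and 10.5% of all tested genes, with a median log2 fold change of 0.17. ROT3, a P450 of the synthesis pathway, had 119 and 129 CPM in the pith libraries, against 9.75 and 9.47 CPM in the vascular bundle libraries, with a log2 difference of 3.69 ± 0.24 (SE) and an adjusted p of 0.000276. CPD, a further P450 of the pathway, had 206 and 289 CPM in the pith, against 40.01 and 35.2 CPM in the vascular bundle. The receptor gene BRI1 had 212 and 219 CPM in the pith, against 46.5 and 52.4 CPM in the vascular bundle. Its relative BRL2, known from provascular cells, had 16 and 6.62 CPM in the pith, against 101 and 79.7 CPM in the vascular bundle, and BKI1, an inhibitor of the receptor, had 0.385 and 0.578 CPM in the pith, against 4.92 and 4.69 CPM in the vascular bundle. The receptor and the synthesis genes named here were thus called higher in the pith, and the relative and the inhibitor lower. The call of BKI1 was lost without vascular bundle replicate 1 (adjusted p = 0.0985) and without vascular bundle replicate 2 (adjusted p = 0.0822). Overlapping annotation makes the counts of ROT3 and CPD uncertain.

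Genes that move calcium out of the cytosol or store it were also listed after the values had been seen. Of 21 listed 18 were tested, 6 were higher (6, 6, 3 and 4 with each library left out) and 3 lower, with a median log2 fold change of 0.23. CAX1, which pumps calcium into the vacuole in exchange for protons, had 3857 and 5496 CPM in the pith libraries, against 56.8 and 106 CPM in the vascular bundle libraries (log2 difference 5.84 ± 0.42 SE, adjusted p = 0.000319). ACA10 and ACA11 encode calcium pumps. ACA10 had 1389 and 1014 CPM in the pith, against 92.4 and 91.6 CPM in the vascular bundle. ACA11 had 121 and 109 CPM in the pith, against 21.3 and 28.8 CPM in the vascular bundle. On the other side ACA8 had 11.8 and 21 CPM in the pith, against 111 and 121 CPM in the vascular bundle. Pumps of the same family thus differed in direction, as did the calreticulins, which bind calcium in the endoplasmic reticulum. CRT3 had 607 and 412 CPM in the pith, against 155 and 157 CPM in the vascular bundle and was higher, while CRT1b had 19.7 and 20.4 CPM in the pith, against 45.2 and 50.2 CPM in the vascular bundle and was lower. CRT3 lost its call without vascular bundle replicate 1 (adjusted p = 0.0116) and without vascular bundle replicate 2 (adjusted p = 0.012). For CRT1b the call was lost without vascular bundle replicate 1 (adjusted p = 0.0629) and without vascular bundle replicate 2 (adjusted p = 0.101). ACA10 and ACA11 also overlap another annotated gene, so their counts are uncertain.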
